A study of Mus musculus with 12 samples.

Results

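The genes described here are 30 mouse genes of tubular injury and failed repair, chosen by name, and each was matched to 1 row of a deposited table of 55487 genes by its symbol. All 30 passed the filter on low counts that left 17890 genes for testing. Whole kidneys of male mice of the B6 background with X-linked Alport syndrome were sequenced at 30 weeks of age, as 12 libraries. The samples are labelled Col4a5, a type IV collagen gene of the glomerular basement membrane, and all 12 share that defect. There were 6 control diet kidneys and 6 kidneys from mice fed 500 ppm of fisetin, a plant flavonol, with 3 of each diet in each of 2 batches given by the labels. The labels give the genotype as HET although the mice are male, they name no tubule-specific driver or line, and no healthy kidney was used here. The comparison asks how the fisetin diet relates to injury genes in kidneys that are all diseased. Each library is treated as 1 kidney and called here by its diet and an arbitrary number. Since the labels tie no library to an animal, the p-values below cover the spread among libraries, which may be partly technical.

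When a proximal tubule cell is damaged it loses transport functions, takes on an immature, spread-out shape and begins to make proteins that a resting tubule hardly makes. Most such cells recover, while some stay in a state called failed repair, marked by Vcam1, Sox9, Sox4 and Cd44, and release signals that act on macrophages and fibroblasts. Havcr1, which encodes KIM-1, and Lcn2, which encodes NGAL, are the injury markers most often measured in kidney and urine.

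No injury gene differed between the diets past the threshold. With edgeR's quasi-likelihood test and Benjamini-Hochberg adjustment over all genes, 0 of 30 members had an adjusted p under 0.05, against 0% of the 17890 genes tested. At an unadjusted p under 0.05 the count was also 0 of 30 members, against 14.6% of genes, 8.23% of genes being higher and 6.34% lower with fisetin. DESeq2 called 0 members and 0.954% of genes, and limma-voom with sample quality weights called 3 members, Cp, Vim and Anxa3, and 13.4% of genes. In that fit 29 members had a positive difference, with 50.1% of genes positive. The CPM values (counts scaled to library size) of the 6 fisetin and 6 control kidneys overlapped for all 30 members, while they did not overlap for 0.894% of genes. The edgeR log2 fold change of fisetin against control was positive for 18 members, with 50.2% of genes positive, and its median was 0.05 over the members and 0.00 over all genes. The intervals bound the size of a difference. For 21 members the 95% interval of the fold change lay within 1.5-fold in both directions, and for the other 9 it reached past 1.5-fold in at least 1 direction.

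**Figure D1:**
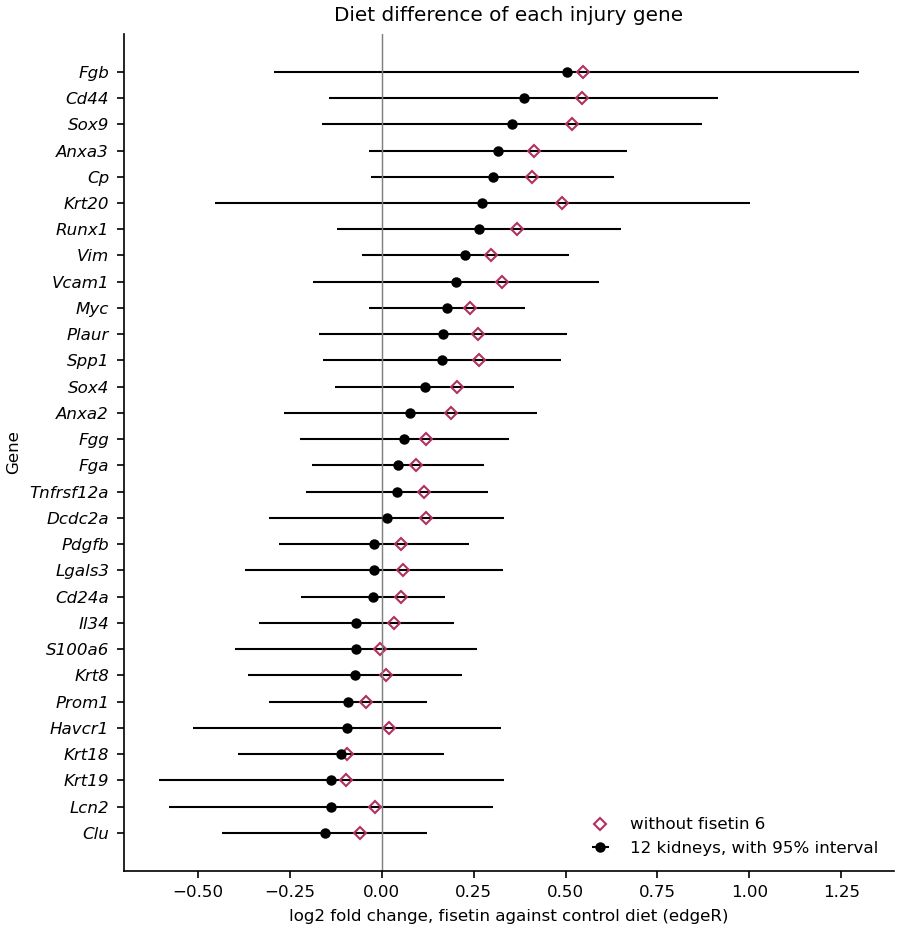
Diet difference of each injury gene. Black points and lines give the log2 fold change of fisetin against control diet from edgeR with its 95% interval over 12 kidneys, and open diamonds give the same value without the kidney fisetin 6. All 30 intervals include 0, and leaving out fisetin 6 moved the median from 0.05 to 0.12. Fisetin 6 was the lowest kidney for most members, so leaving it out raises the differences by itself.

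The fibrinogen genes are shown first by sequence, because the 3 genes are neighbours while 1 of them followed the others less closely. Fibrinogen, the clotting protein of blood plasma, is assembled from the chains encoded by Fga, Fgb and Fgg, which liver cells make under interleukin 6 and which injured tubule cells also make. The genes lie together on chromosome 3 in GRCm38, with Fgg at chr3:83007724-83015049 and Fga at chr3:83026076-83033627 on the plus strand and Fgb at chr3:83040141-83049863 on the minus strand. The bases upstream of each start site follow, 5′ to 3′, from RefSeq (GRCm38.p6), at chr3:83025903-83026075 (plus), chr3:83049864-83050113 (minus) and chr3:83007474-83007723 (plus). Capitals mark matches on either strand to TTCNNNGAA, the site form bound by STAT factors, and to TTGCNNAA, a form bound by C/EBP factors.
Fga: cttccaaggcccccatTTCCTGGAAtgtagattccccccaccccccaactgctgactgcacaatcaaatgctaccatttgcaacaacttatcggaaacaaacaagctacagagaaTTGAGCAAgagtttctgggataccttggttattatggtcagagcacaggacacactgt
Fgb: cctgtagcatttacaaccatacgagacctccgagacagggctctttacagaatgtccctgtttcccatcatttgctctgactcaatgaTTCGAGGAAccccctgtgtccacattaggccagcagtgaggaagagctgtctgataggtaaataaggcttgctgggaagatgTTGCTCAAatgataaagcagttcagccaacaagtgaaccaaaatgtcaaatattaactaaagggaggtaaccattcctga
Fgg: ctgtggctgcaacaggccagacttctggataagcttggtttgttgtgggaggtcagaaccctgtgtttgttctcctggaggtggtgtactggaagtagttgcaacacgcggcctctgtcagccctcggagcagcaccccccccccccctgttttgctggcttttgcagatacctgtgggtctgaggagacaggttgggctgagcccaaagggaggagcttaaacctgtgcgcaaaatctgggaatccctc
Both forms matched upstream of Fga and of Fgb, and neither matched in the Fgg window, which says only that these letters are not in it.

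Fga ranged from 97.0 to 149 CPM in control kidneys, with a median of 112, and from 97.3 to 133 CPM with fisetin, with a median of 123. Fgg ranged from 77.1 to 140 CPM in control kidneys, with a median of 95.9, and from 78.9 to 115 CPM with fisetin, with a median of 111. The diets overlapped for both genes, and the highest of the 12 kidneys was control 2 for each. The log2 fold changes were 0.04 ± 0.11 (SE) for Fga and 0.06 ± 0.13 for Fgg, with edgeR adjusted p-values of 0.853 and 0.828. Across the 12 kidneys, log2 CPM of Fga and Fgg had a Pearson r of 0.95 and a Spearman rho of 0.86 (permutation, adjusted p = 0.00099 and 0.012 over 33 relations), with r of 0.94 and 0.98 within the batches and 0.95 without the 2 kidneys farthest from the median.

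Fgb followed its neighbours less closely than they followed each other. It was at 8.46 to 15.7 CPM in 11 kidneys and at 44.0 CPM in fisetin 5, which is the highest value and the one kidney outside that range. In the same kidney Fga was at 133 CPM and Fgg at 115 CPM, inside the range of the other 11. Each was the highest fisetin value of its gene and was exceeded by control 2 alone. Both genes stand at higher CPM than Fgb, so a gain of similar CPM would be a smaller share of their level. The log2 fold change of Fgb, 0.50 ± 0.36 (adjusted p = 0.489), was the highest of the 30 members and fell to 0.06 without fisetin 5 (adjusted p = 0.926). The difference in mean log2 CPM was -0.17 in batch 1 and 0.95 in batch 2, which holds fisetin 5. The interaction of diet with batch had an unadjusted p of 0.041 for Fgb, the 1 member of 30 under 0.05 against 2.1% of genes, and its adjusted p was 1.00. Fgb had r of 0.41 with Fga and 0.34 with Fgg (permutation, adjusted p = 0.295 and 0.36). Within the batches r was 0.61 and 0.50 with Fga and 0.58 and 0.45 with Fgg. Among the 6 control kidneys Fgb had r of 0.79 with Fga and 0.77 with Fgg, and among the 6 fisetin kidneys 0.24 and 0.11. Most of the liver genes looked at were also high in fisetin 5. In fisetin 5 the albumin gene Alb was at 737 CPM, against 1.58 to 5.48 CPM in the other 11 kidneys, Apoa1 at 40.3 CPM against 0.0472 to 0.251, and Ahsg at 37.1 CPM against 0 to 0.0563. Of the 6 hepatocyte markers, the other 2 that stood above every other kidney there were Apoa2 (30.3 CPM) and F2 (13.7 CPM), and Ttr did not. The summed level of all 6 was 1024 CPM in fisetin 5 and 75.3 to 238 CPM elsewhere. The part of these transcripts in the Fgb value was not tested.

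Among the genes whose products leave the cell or are released, Havcr1 and Lcn2 overlapped widely between the diets. Havcr1, on chromosome 11 (46735080 to 46779578, plus strand), ranged from 91.7 to 145 CPM in control kidneys with a median of 107, and from 65.3 to 147 CPM with fisetin with a median of 107. The highest and the lowest of the 12 kidneys, fisetin 4 and fisetin 6, both had fisetin, so the control range lay inside the fisetin range. Its log2 fold change was -0.10 ± 0.19 with a 95% interval of -0.51 to 0.32 (adjusted p = 0.816). Lcn2 ranged from 75.6 to 142 CPM in control kidneys (median 98.9) and from 54.2 to 121 CPM with fisetin (median 101). Control 5 was highest, fisetin 6 was lowest, and the log2 fold change was -0.14 ± 0.20 (adjusted p = 0.744). Lcn2 is also a neutrophil gene. The 6 neutrophil markers summed to 0.375 to 1.24 CPM in control and 0.581 to 1.18 CPM in fisetin kidneys, and none of the 6 passed the filter on low counts.

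Spp1, which encodes the matrix and urine protein osteopontin, was the most abundant member per length. Its FPKM (fragments scaled to transcript length and depth, as deposited) ran from 2145 to 4493 with a median of 3698, above every value of the next gene, Clu, at 221 to 464. This was 1 of 29 neighbouring pairs in the order of median FPKM whose ranges over the 12 kidneys did not overlap. The ranges of the other 28 pairs overlapped. Within kidneys, the order of 4 pairs was the same in all 12, namely Spp1 above Clu, Clu above S100a6, Prom1 above Tnfrsf12a and Myc above Plaur. For the other 25 pairs the order differed in at least 1 kidney. In CPM, Spp1 ranged from 3012 to 4337 in control kidneys (median 3540) and from 2563 to 4725 with fisetin (median 4328). With fisetin, 5 of 6 kidneys lay above the control median, and fisetin 6 lay below every control kidney. The log2 fold change was 0.16 ± 0.15 (adjusted p = 0.583).

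**Figure D2:**
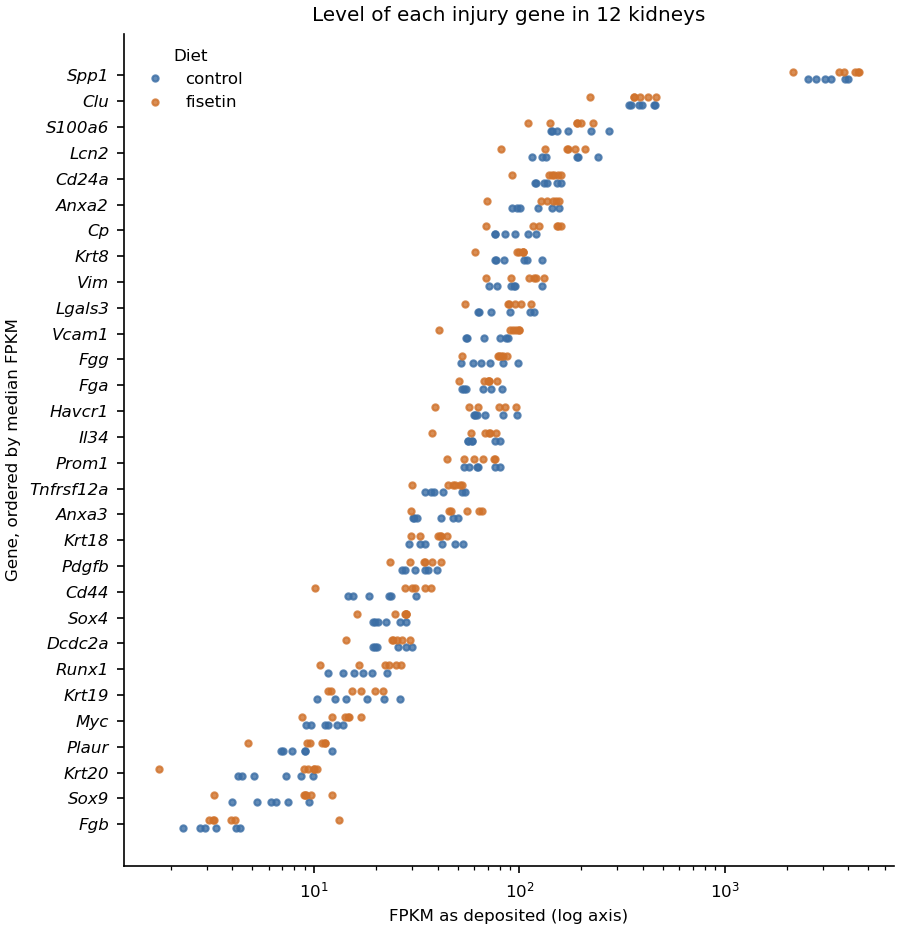
FPKM of each injury gene in 12 kidneys on a log axis, with genes ordered by median FPKM and 1 point per kidney (blue control, orange fisetin). Spp1 stands alone at the top with a median of 3698, and Fgb has the lowest median, 3.28.

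Clu, which encodes the secreted chaperone clusterin, ranged from 537 to 677 CPM in control kidneys (median 574) and from 351 to 668 CPM with fisetin (median 541), and fisetin 6 was again lowest. Its log2 fold change, -0.16 ± 0.13, was the lowest of the 30 members (adjusted p = 0.543). Cp, which encodes the copper-carrying ferroxidase ceruloplasmin, had the smallest p of the members. It ranged from 205 to 310 CPM in control kidneys (median 257) and from 190 to 366 CPM with fisetin (median 338). Of the fisetin kidneys, 5 of 6 were above the control median and the sixth was the lowest of all 12. The log2 fold change was 0.30 ± 0.15 (unadjusted p = 0.070, adjusted p = 0.367), and the exact permutation test over the 400 arrangements of diet within batches gave p = 0.145, two-sided, where 0.005 is the smallest it can give. Il34, a ligand of the macrophage receptor Csf1r, ranged from 51.4 to 68.3 CPM in control kidneys (median 55.8) and from 35.3 to 65.4 CPM with fisetin (median 56.7). Control 5 was highest and fisetin 6 lowest (-0.07 ± 0.12 on the log2 scale, adjusted p = 0.788). Pdgfb, a growth factor for mesenchymal cells, had a log2 fold change of -0.02 ± 0.12.

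Keratins and vimentin are the filament proteins that a spread-out tubule cell makes. Krt8 and Krt18 pair into 1 filament and lie near each other on chromosome 15 (101996698 to 102004482 and 102028180 to 102032027). Krt8 ranged from 131 to 205 CPM in control kidneys (median 162) and from 108 to 174 CPM with fisetin (median 161). Krt18 ranged from 35.1 to 57.9 CPM in control kidneys (median 45.1) and from 33.8 to 47.6 CPM with fisetin (median 44.2). The diets overlapped for both, with log2 fold changes of -0.07 ± 0.13 and -0.11 ± 0.13 (adjusted p = 0.797 and 0.673). Although the proteins pair, r between the 2 genes over 12 kidneys was 0.62 with rho of 0.71 (permutation, adjusted p = 0.085 and 0.128), and it was 0.97 among the 6 control kidneys and 0.05 among the 6 fisetin kidneys, a difference that was not tested. Krt19 ranged from 13.4 to 32.5 CPM in control kidneys (median 18.6), highest in control 1, and from 13.8 to 25.5 CPM with fisetin (median 19.6), so that the diets overlapped (-0.14 ± 0.22, adjusted p = 0.761).

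Krt20, a keratin of surface epithelia, varied most over the kidneys. It was at 7.40 to 15.5 CPM in control kidneys, with a median of 10.4, and at 14.2 to 15.9 CPM in 5 fisetin kidneys, while fisetin 6 was at 3.05 CPM. Those 5 kidneys lay near or just above the top of the control range and the sixth lay below all of it. The log2 fold change was 0.27 ± 0.33 over 12 kidneys (adjusted p = 0.689) and 0.49 without fisetin 6 (adjusted p = 0.152). Krt20 and Krt19 are also expressed by urothelium, whose 6 markers summed to 23.98 to 48.3 CPM in control and 9.23 to 51.7 CPM in fisetin kidneys. The part of urothelium in these values was not tested. Vim ranged from 130 to 202 CPM in control kidneys (median 160) and from 136 to 231 CPM with fisetin (median 195), with a log2 fold change of 0.23 ± 0.13 (unadjusted p = 0.105, adjusted p = 0.402).

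The 4 transcription factors all had positive log2 fold changes, none past the threshold. Sox9, which is turned on in regenerating tubule cells, ranged from 16.1 to 35.1 CPM in control kidneys (median 24.7) and from 13.4 to 44.6 CPM with fisetin (median 34.6). Of the fisetin kidneys, 5 of 6 were above the control median and fisetin 6 was the lowest of the 12 (0.35 ± 0.24, adjusted p = 0.46). Runx1, a factor of blood and injured epithelium, ranged from 44.4 to 78.6 CPM in control kidneys (median 60.8) and from 43.6 to 90.6 CPM with fisetin (median 77.4), and fisetin kidneys held both ends (0.26 ± 0.18, adjusted p = 0.46). Myc, a growth factor-induced regulator of cell growth, ranged from 16.5 to 21.6 CPM in control kidneys (median 20.1) and from 16.7 to 25.8 CPM with fisetin (median 22.3), highest in fisetin 4 (0.18 ± 0.10, adjusted p = 0.391). Sox4 had a log2 fold change of 0.12 ± 0.11.

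**Figure D3:**
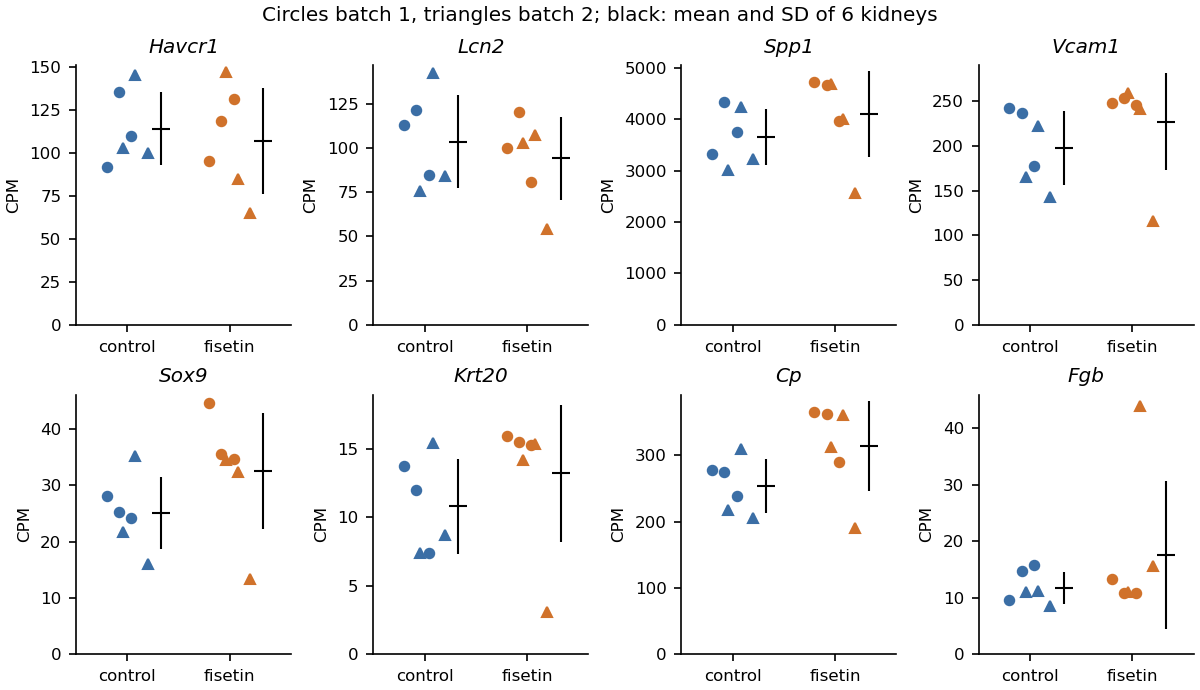
CPM of 8 injury genes in each kidney by diet, with circles for batch 1, triangles for batch 2 and black marks for the mean and SD of 6 kidneys. In Spp1, Vcam1, Sox9, Krt20 and Cp the lowest orange triangle is fisetin 6, and in Fgb the highest is fisetin 5 at 44.0 CPM.

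Of the surface and adhesion genes, Vcam1, an adhesion molecule for leukocytes that marks failed repair, ranged from 143 to 242 CPM in control kidneys (median 200) and was at 241 to 259 CPM in 5 fisetin kidneys and 116 CPM in fisetin 6. The 5 kidneys sat near or above the top of the control range and the sixth below its bottom. The log2 fold change was 0.20 ± 0.18 (adjusted p = 0.572), and 0.33 without fisetin 6 (adjusted p = 0.132). Cd44, a receptor for hyaluronan made by injured tubule cells and by leukocytes, ranged from 50.03 to 93.5 CPM in control kidneys (median 67.3) and from 34.2 to 115 CPM with fisetin (median 93.7), lowest again in fisetin 6. Its log2 fold change was 0.39 ± 0.24 (adjusted p = 0.436), and 0.54 without fisetin 6 (adjusted p = 0.087). Plaur, the urokinase receptor, and Tnfrsf12a, the receptor of TWEAK, had log2 fold changes of 0.17 ± 0.16 and 0.04 ± 0.11. Prom1 and Cd24a, which mark scattered progenitor-like tubule cells, had -0.09 ± 0.10 and -0.02 ± 0.09 (SE in all of these).

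Anxa3, a calcium- and membrane-binding annexin, ranged from 39.4 to 57.8 CPM in control kidneys (median 45.2) and from 37.5 to 72.0 CPM with fisetin (median 59.9), with a log2 fold change of 0.32 ± 0.16 (unadjusted p = 0.073, adjusted p = 0.37). The diets overlapped, with fisetin 6 the lowest kidney. Its relative Anxa2 had 0.08 ± 0.16, the galectin Lgals3 -0.02 ± 0.16, and the calcium-binding S100a6 -0.07 ± 0.15. Dcdc2a, a doublecortin-domain gene tied to the primary cilium, had 0.01 ± 0.15. The adjusted p-values of the 30 members ran from 0.367 to 0.971.

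The spread between kidneys was wide for these genes. The SD of log2 CPM within diet and batch had a median of 0.30 over the members and 0.19 over all genes tested. Set among the genes nearest in mean level (up to 1001, the member included), the SD of all 30 members was above the 50th percentile, that of 27 above the 75th and that of 15 above the 90th. The members share these kidneys, so the counts are not independent. The ratio of the highest to the lowest kidney ran from 1.53 in Fga to 5.22 in Krt20, and it was 5.20 in Fgb, 3.35 in Cd44, 3.32 in Sox9 and 2.63 in Lcn2.

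The same few kidneys stood at the ends of the range for most members. Fisetin 6 was the lowest of 12 for 23 members, and for 14.4% of all genes, and it was among the lowest 4 for 29 members and 37.2% of all genes. Control 4 and control 6 were among the lowest 4 for 28 and 26 members, and for 37.9% and 34.4% of all genes. At the other end, control 5 was highest for 9 members, against 4.55% of all genes, and fisetin 1 for 6, against 11.3%. For 17 members all 5 other fisetin kidneys lay above the control median, and in 14 of those 17 fisetin 6 was the lowest of the 12 kidneys. That count was not made over all genes, and it sets aside the kidney that was lowest for most members. Without fisetin 6, edgeR still called 0 of 30 members (smallest adjusted p = 0.083, Cp) and 0.388% of genes. At an unadjusted p under 0.05 it had 11 members, all higher with fisetin, against 13.3% of genes higher at that level. The log2 fold change was then positive for 24 members, with 49.8% of genes positive. Fisetin 6 was the lowest kidney for most members, and leaving out such a kidney raises the fisetin differences by itself. These counts therefore follow in part from that choice. The labels give nothing that sets fisetin 6 apart. Over the 12 edgeR fits that each left out 1 kidney, the smallest adjusted p of a member ran from 0.083 to 0.654. The top of that range was the fit without fisetin 5, and the value with all 12 kidneys was 0.367.

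**Figure D4:**
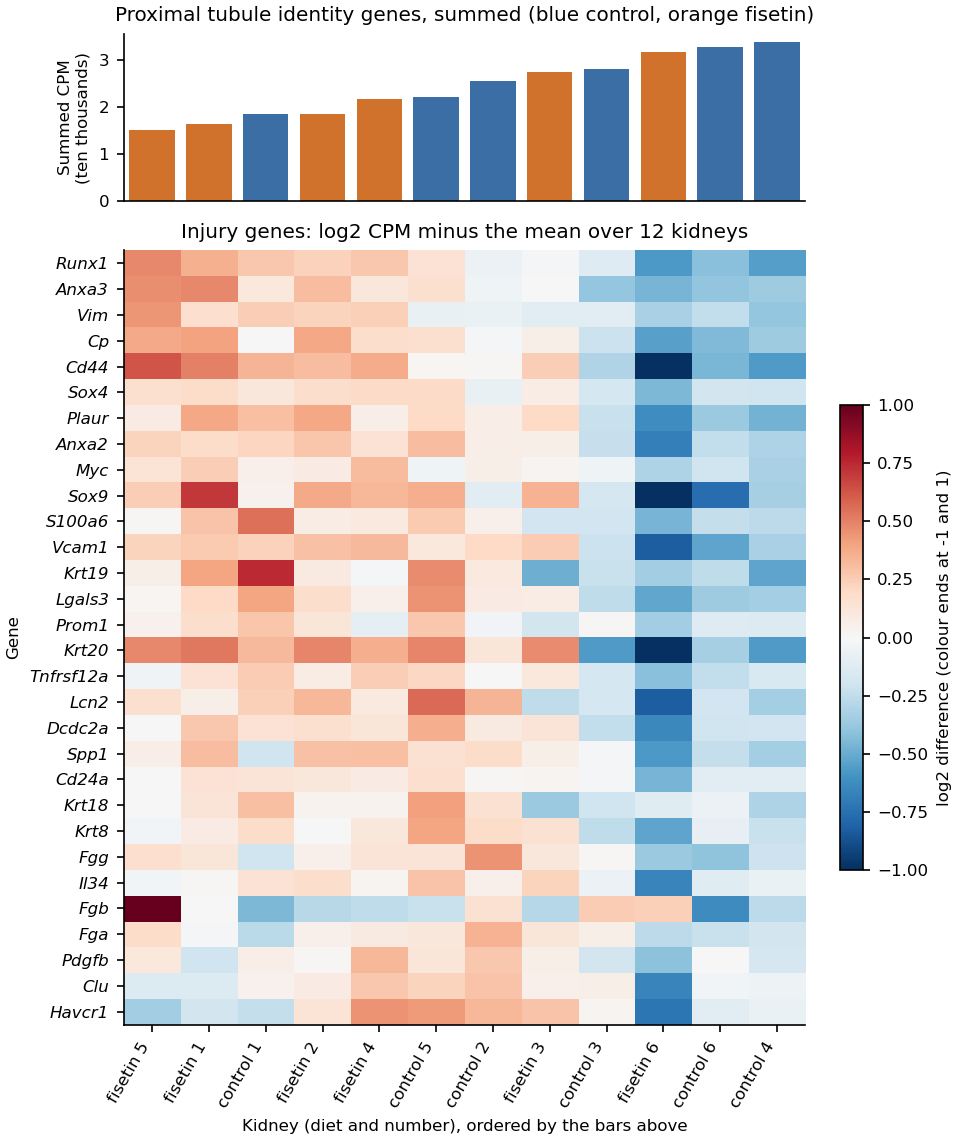
Top: summed CPM of 18 proximal tubule identity genes in each kidney (blue control, orange fisetin), by which the columns are ordered. Bottom: log2 CPM of each injury gene minus its mean over 12 kidneys, with genes ordered by their correlation with that sum. The 3 kidneys at the right, fisetin 6, control 6 and control 4, have the highest sums and low values in most genes, while the lowest genes, Clu and Havcr1, do not follow the order.

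Genes of the resting proximal tubule went the other way across the kidneys. The 18 identity genes, among them the phosphate transporter Slc34a1 and the uptake receptor Lrp2, summed to 31691 CPM in fisetin 6, 33846 in control 4 and 32661 in control 6, and to 15115 to 28026 CPM in the other 9. In bulk kidney, fewer cells of a type and less RNA per cell cannot be told apart. All 30 members had a negative r with this sum, and 21 passed adjustment over 60 relations by r (permutation) and 20 also by rho. All 21 were negative within both batches. Over the other genes tested 52.1% had a negative r with the sum, and 20.8% had an r at or below -0.64, the weakest among those 21 members. These relations were chosen after the data were seen, and both sides of each come from the same libraries. The strongest correlation was that of Runx1, with r of -0.95 and rho of -0.97 (permutation, adjusted p = 0.0001 and 0.0002). Its r was -0.98 and -0.96 within the batches and -0.94 without the 2 farthest kidneys. Anxa3, Vim, Cp and Cd44 followed with r of -0.94, -0.94, -0.90 and -0.86. Of the members that did not pass, Havcr1 and Clu had the weakest relations, with r of -0.02 and -0.18 (adjusted p = 0.961 and 0.628). The others that did not pass were Il34, Pdgfb, Fga, Fgb, Fgg, Krt8 and Krt18, with r from -0.33 to -0.58. In batch 1, r was positive for Havcr1, Clu, Pdgfb, Fga, Fgb and Fgg, from 0.27 for Pdgfb to 0.70 for Havcr1. Without fisetin 6 it was 0.29 for Havcr1 and 0.20 for Clu, and without fisetin 5 it was 0.08 for Fgb.

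Macrophage genes moved with the members too. The 11 markers, which include the complement genes C1qa, C1qb and C1qc and the receptor Csf1r, summed to 670 to 1235 CPM in control and 629 to 1627 CPM in fisetin kidneys, lowest in fisetin 6 and highest in fisetin 5. All 30 members had a positive r with this sum and 19 passed adjustment over the same 60 relations by r, all of them positive within both batches, and 16 also by rho. Over the other genes tested 51.3% had a positive r, and 19.6% had an r of at least 0.64, the weakest among those 19 members. Runx1, Cd44 and Vim had r of 0.97, 0.96 and 0.96, and all 3 are also expressed by leukocytes. Anxa3 and Cp followed with r of 0.95 and 0.94. Havcr1 had 0.20. For diet, all 11 macrophage markers had positive log2 fold changes (median 0.39), of which 2 had an unadjusted p under 0.05 and 0 passed adjustment. The kidneys with the highest proximal tubule sums, fisetin 6, control 4 and control 6, had the lowest macrophage sums, at 629, 670 and 777 CPM. Fisetin 5 had the lowest proximal tubule sum and the highest macrophage sum. The relations with the macrophage sum are therefore not independent of those with the proximal tubule sum. The part of macrophages in the members' values was not tested.

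Havcr1 was followed most closely by Clu. Over 12 kidneys their r was 0.92 and rho 0.91 (permutation, adjusted p = 0.00066 and 0.0049 over 33 relations), with r of 0.72 and 0.96 within the batches and 0.85 without the 2 kidneys farthest from the median of Havcr1, which were fisetin 4 and fisetin 6. No other relation of Havcr1 passed, although 28 of 29 were positive with a median r of 0.53. On log2(TPM + 1), a scaling to a fixed total per library, 22 of the 33 relations passed, and Havcr1 had r of 0.95 with Clu, 0.84 with Krt8, 0.82 with Cd24a and 0.74 with Lcn2. On the CPM scale many of the others changed with the kidneys used. Over the 29 relations, the median r was 0.13 without fisetin 4 and fisetin 6, and it was -0.25 in batch 1, where 20 of 29 were negative, and 0.72 in batch 2. With Lcn2, r was 0.61 over all kidneys (adjusted p = 0.085), -0.06 in batch 1 and 0.78 in batch 2. With Fga, Fgg and Pdgfb, r was positive in both batches, at 0.88 and 0.53, 0.73 and 0.57, and 0.59 and 0.80. Fisetin 4 and fisetin 6 hold the ends of the Havcr1 range, and leaving out such kidneys can lower r by itself.

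**Figure D5:**
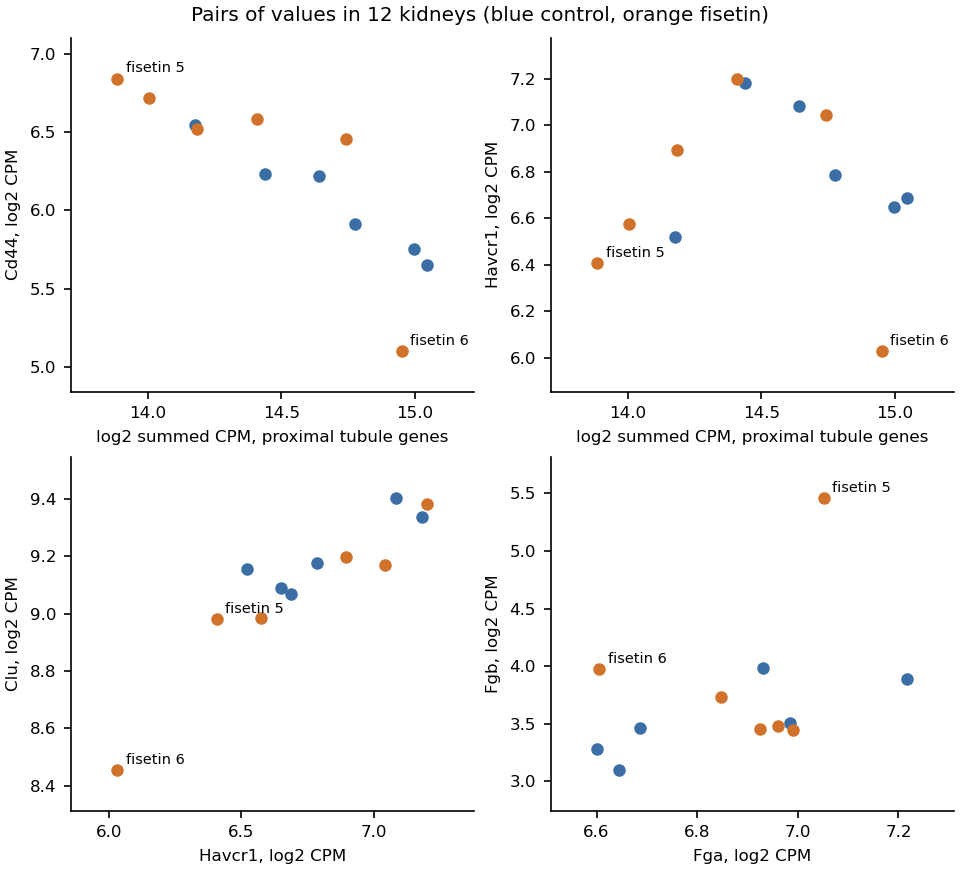
Pairs of values in 12 kidneys on log2 scales, 1 point per kidney (blue control, orange fisetin). Cd44 was lower where the summed proximal tubule genes were higher (r of -0.86) and Havcr1 did not follow them (r of -0.02), Clu followed Havcr1 (r of 0.92), and Fgb had its highest value in fisetin 5 while Fga lay inside its range there. Among the fisetin kidneys, Fga was also highest in fisetin 5.

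Further genes of injury and repair, a list of 40 without the members, were read from the same fit. Of the 39 tested, 25 had a positive and 14 a negative log2 fold change, with a median of 0.10, and 0 passed adjustment in edgeR. At an unadjusted p under 0.05, 6 were higher with fisetin and 1 was lower. The chemokine gene Cxcl2 had a log2 fold change of 0.61 ± 0.21, complement C3 of 0.67 ± 0.24, and the stress-induced cytokine gene Gdf15 of 0.40 ± 0.15 (adjusted p = 0.29, 0.296 and 0.303). Of the 18 proximal tubule identity genes, 16 had a negative log2 fold change (median -0.26). At an unadjusted p under 0.05, 1 was higher and 2 were lower with fisetin, and 0 passed adjustment in edgeR. The smallest p-values were those of Pck1, a gluconeogenic enzyme gene with 0.77 ± 0.21, the organic anion transporter Slc22a8 with -0.71 ± 0.28, and Miox, a myo-inositol oxygenase gene with -0.80 ± 0.35.

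The upstream windows of the members were compared with those of all genes. RefSeq sequence was at hand for 21 of the 30 members and 27025 genes in all, and 250 bases upstream were searched on both strands. A gene could have several listed starts, and windows were kept where they lay inside the gene. The C/EBP form TTGCNNAA was found in 33.3% of members, namely Havcr1, Lcn2, Cp, Spp1, Fga, Fgb and Plaur, and in 10.8% of all genes. The matches of Havcr1, Lcn2, Cp and Spp1 to this form lie inside the annotated gene. The AP-1 form TGANTCA was found in 23.8% of members (Cp, Fgb, Plaur, Prom1 and Anxa2) and 7.82% of all genes. The TEAD form GGAATG was found in 28.6% against 14.4%, and its match at Fga overlaps that of the STAT form. The STAT form was found in 14.3% against 8.13%, the NF-kB form (GGG, any 2 bases, TTTCC) in 4.76% against 1.65%, and the SOX form ACAAAG in 14.3% against 18.6%. These shares describe letters in windows, over few members, with no test.

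Total counts per library were 16310214 to 24451821 and every member had at least 56 reads in every kidney. The 5 kidney tubule markers, among them Umod and Slc12a1, were all detected and summed to 5998 to 14812 CPM. Batch, tested the same way, called 0 of 30 members and 0% of genes with edgeR. At an unadjusted p under 0.05 for batch there was 1 member, Plaur, against 3.38% of genes.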

How the data were processed

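Messenger RNA libraries from 12 kidneys were prepared using a KAPA mRNA HyperPrep kit, per the labels' protocols, and diet and batch were taken from the labels. STAR, featureCounts, fastp and DESeq2 are named, with GRCm38 and mm10 as builds, per the submitters' processing notes. Annotation, strand setting and the treatment of reads that match several genes are not given in the sources used. Krt8, Krt18 and Havcr1, which have close copies or relatives, are therefore uncertain in level. The deposited values are estimated counts, not scaled for depth, with TPM and FPKM scaled by the authors, per the file headers. Counts were rounded, as 13.9% of those above 0 were fractional (tolerance 1e-06).

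Genes passing filterByExpr (minimum count 10) were scaled by TMM and fitted in edgeR 4.0.16 (R 4.3.3) with glmQLFit (robust) on batch plus diet. Diet was tested two-sided by glmQLFTest, with Benjamini-Hochberg adjustment and a threshold of 0.05. DESeq2 1.42.0 and limma 3.58.1 were alternatives. Single members were also tested by exact permutation of diet within batches (log2 CPM, prior count 2), and relations by 100000 permutations. Coordinates are from GENCODE M21 on GRCm38, and upstream sequences from RefSeq. In the 3 printed sequences, bases inside the GENCODE gene were left out, which removed 77 bases for Fga. The windows searched for motif shares were not trimmed in this way. The 66 pairs of libraries differed by 7.00 to 105 times counting noise over 16473 genes, so none was a copy of another.

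On simulated counts for the diet comparison (17720 genes), edgeR found 24.3% of the genes given a 1.3-fold change and 60.2% of those given 1.5-fold. For a 2-fold change it found 78.3%, and for 3-fold 96.9%. Of its calls, 4.58% were false. Genes were drawn independently there, unlike these kidneys. The percentages found are not specific to the members. In the kidneys, the SD of log2 CPM within diet and batch had a median of 0.30 over the members and 0.19 over all genes tested. The percentage found among genes as variable as the members was not tested. The members and lists were chosen with earlier results of these data known. Members described in full are a fixed set of 15 and the 8 with the smallest p, and of other lists the genes with the smallest p are named.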

Additional observations from a re-analysis of the deposited data

Results flagged for a closer look

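Within each diet of 6 kidneys, a kidney was singled out where its gap to the nearest other kidney was more than 0.625 of the whole range. Of 60 such groups of member values, 13 were singled out, and of 84 with the marker sums, 16. Chance singles out about 1 in 20 groups, and the members share kidneys, so these are not independent.

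Fisetin 6 was apart at the low end of the fisetin kidneys in 12 members. It had 85.2 CPM of Anxa2 with the next kidney at 142, 149 CPM of Cd24a with the next at 205, 34.2 CPM of Cd44 with the next at 87.9, and 68.1 CPM of Dcdc2a with the next at 106. It had 78.9 CPM of Fgg, 35.3 CPM of Il34, 3.05 CPM of Krt20, 108 CPM of Krt8 and 51.9 CPM of Lgals3. It had 77.7 CPM of Sox4, 2563 CPM of Spp1 and 116 CPM of Vcam1, where the next kidneys were at 112, 3966 and 241 CPM. The summed endothelial markers of the same kidney were the highest with fisetin, at 548 CPM, with the next at 422.

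Fisetin 5 was apart at the high end, with 44.0 CPM of Fgb and the next kidney at 15.6, and with 1024 CPM of summed hepatocyte markers and the next at 161. Control 1 had 56.7 CPM of summed T and B cell markers, with the next control kidney at 29.5.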

How the results depend on the processing

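Over 21 alternatives (12 leaving out 1 kidney, 9 others), 14 members kept the sign of their diet difference and 16 changed it somewhere, all of them without a call. No member passed adjustment in 20 of the alternatives. With limma-voom and sample quality weights 3 members passed, Cp (log2 fold change 0.42, adjusted p = 0.033), Anxa3 (0.42, 0.038) and Vim (0.30, 0.049), 29 members were positive and 2390 genes passed. DESeq2 called 154 genes, batch 1 alone 1 gene, and leaving out each kidney 0 to 70 genes, with 1 without fisetin 4 and 70 without fisetin 6. The cause was not tested.

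Values that changed sign follow. With limma-voom weights the log2 fold change of Havcr1 was 0.027, Lcn2 0.073, Il34 0.053, Pdgfb 0.036, Krt8 0.033, Krt18 0.012, Krt19 0.075, Prom1 0.016, Cd24a 0.067, Lgals3 0.17 and S100a6 0.090. With total counts as the scaling, which moves the median of all genes from 0.00 to 0.05, Pdgfb was 0.025, Cd24a 0.024 and Lgals3 0.018. On log2(TPM + 1), where that median was also 0.05, Il34 was 0.0013, Pdgfb 0.058, Krt8 0.017, Cd24a 0.057 and Lgals3 0.11. In batch 1 alone Havcr1 was 0.035, Il34 0.094, Fga -0.016, Fgb -0.20, Fgg -0.018, Krt8 0.031, Cd24a 0.055 and Lgals3 0.052, and in batch 2 alone Pdgfb was 0.065 and Dcdc2a -0.15. Leaving out each kidney in turn gave ranges of -0.064 to 0.052 for Cd24a, -0.057 to 0.13 for Dcdc2a, -0.011 to 0.12 for Fga, -0.26 to 0.019 for Havcr1, -0.11 to 0.032 for Il34, -0.23 to 0.015 for Krt19, -0.14 to 0.037 for Krt8, -0.21 to 0.022 for Lcn2, -0.097 to 0.13 for Lgals3, -0.11 to 0.051 for Pdgfb, -0.14 to 0.039 for S100a6 and -0.034 to 0.12 for Tnfrsf12a.

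Of the 33 relations between members, 2 passed. The number was 22 on log2(TPM + 1), 5 with the diet and batch means taken out, 2 without the 2 farthest kidneys, and 0 in either batch alone, with 6 kidneys each. The cause was not tested. The relation of Havcr1 with Lcn2 was -0.059 in batch 1. No paired analysis was possible because kidney numbers follow the order of the samples and pair nothing.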

Other observations

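All 5 collecting duct markers, among them the water channel genes Aqp2 and Aqp3, had negative log2 fold changes with an unadjusted p under 0.05, and 0 passed adjustment in edgeR. Elf5, a transcription factor gene of that segment, was at 3.001 ± 0.287 CPM (SD, n = 6) in control and 1.79 ± 0.57 CPM in fisetin kidneys (-0.77 ± 0.18 SE, adjusted p = 0.248 in edgeR). Aqp2 was at 156 ± 26.3 and 94.3 ± 34.9 CPM (-0.72 ± 0.24, adjusted p = 0.29). The 5 markers of other tubule segments were all lower too, with a median of -0.35 and 0 past adjustment.

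T and B cell markers had positive log2 fold changes in 6 of 6, with a median of 0.86, of which 3 had an unadjusted p under 0.05 and 0 passed adjustment. Their summed level was 15.3 to 56.7 CPM in control and 18.4 to 89.3 CPM in fisetin kidneys. Endothelial and podocyte markers had medians of -0.09 and -0.13, with 0 under an unadjusted p of 0.05 in either list. The mesangial and fibroblast markers had a median of -0.01.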
